A study of Mus musculus with 6 samples.

Results

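Cholesterol and fatty acid synthesis was followed through 37 named genes, of 35869 listed in each library of an RNA-sequencing series on mouse acute myeloid leukaemia cells. The genes were taken by symbol: 5 of the SREBP system, 18 of the sterol branch (7 of the mevalonate steps and 11 from squalene to cholesterol), 11 of the fatty acid branch (4 of chain synthesis and 7 desaturases and elongases) and 3 of sterol transfer and efflux. All 37 were found in all 6 libraries. The leukaemia cells were clones transformed with a retroviral MLL-AF9 fusion oncogene, they carried floxed Chaf1b alleles, and they expressed CreERT2, an inducible recombinase. For the 3 KO libraries the cells received β-estradiol, which deletes Chaf1b, which encodes a subunit of the histone chaperone CAF-1, and for the 3 WT libraries floxed clonal control cells, also with CreERT2, received ethanol vehicle. Lysis followed 48 hours after induction, and all cells grew in RPMI-1640 with fetal bovine serum and the cytokines SCF (100 ng/mL), IL6 (50 ng/mL) and IL3 (20 ng/mL). The WT cells are therefore unrecombined floxed cells, and effects of β-estradiol and of the deletion cannot be told apart. The labels do not say whether replicates were separate clones or cultures, so p-values reflect only how far these samples differ, and that may be technical.

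SREBP transcription factors, encoded by Srebf1 and Srebf2, are made as precursors in the membrane of the endoplasmic reticulum. When sterols are scarce, the escort protein SCAP carries them to the Golgi, where proteases free the active factor; when sterols are plentiful, INSIG proteins hold SCAP and its cargo back. The freed factors bind sterol regulatory elements, often next to boxes for the factor NF-Y, and raise transcription of sterol and fatty acid enzymes, with the product of Srebf2 acting mainly on sterol genes and that of Srebf1 mainly on fatty acid genes. Dividing leukaemia cells use both products for membranes.

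Promoter sequences are RefSeq's (GRCm38.p6, equal to mm10) and span 250 bases before to 50 bases after a start site; 28 of the 37 genes had at least 1 entry. The 4 shown are those of Idi1, which rose in KO, of Mvk and Elovl1, which lay just outside the threshold with lower KO values, and of Hmgcs1, whose KO and WT means were nearly equal. They lie at chr13:8885356-8885655, chr5:114444019-114444318, chr4:118427843-118428142 (the first of its 2 entries) and chr13:119690101-119690400, all on the plus strand. They run 5′ to 3′, with capitals for CCAAT, the core of the NF-Y box, or its reverse complement ATTGG, and for the sterol regulatory element TCACNCCAC.
Idi1: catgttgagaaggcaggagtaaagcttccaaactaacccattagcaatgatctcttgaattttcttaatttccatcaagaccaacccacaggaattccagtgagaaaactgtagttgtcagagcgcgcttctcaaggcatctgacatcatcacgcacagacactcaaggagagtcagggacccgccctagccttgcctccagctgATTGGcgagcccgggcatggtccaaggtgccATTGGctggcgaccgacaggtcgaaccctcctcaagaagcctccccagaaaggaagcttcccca
Mvk: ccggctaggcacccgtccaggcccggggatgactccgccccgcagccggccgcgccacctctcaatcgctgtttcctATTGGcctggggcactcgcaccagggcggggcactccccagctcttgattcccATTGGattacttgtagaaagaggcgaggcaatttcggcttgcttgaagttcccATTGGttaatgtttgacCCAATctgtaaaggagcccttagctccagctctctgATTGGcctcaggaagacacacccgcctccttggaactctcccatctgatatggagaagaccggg
Elovl1: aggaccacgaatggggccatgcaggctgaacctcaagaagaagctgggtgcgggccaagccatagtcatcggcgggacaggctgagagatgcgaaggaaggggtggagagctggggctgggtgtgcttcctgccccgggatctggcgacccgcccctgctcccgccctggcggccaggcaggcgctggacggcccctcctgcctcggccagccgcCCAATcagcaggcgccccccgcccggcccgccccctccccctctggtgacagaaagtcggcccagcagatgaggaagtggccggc
Hmgcs1: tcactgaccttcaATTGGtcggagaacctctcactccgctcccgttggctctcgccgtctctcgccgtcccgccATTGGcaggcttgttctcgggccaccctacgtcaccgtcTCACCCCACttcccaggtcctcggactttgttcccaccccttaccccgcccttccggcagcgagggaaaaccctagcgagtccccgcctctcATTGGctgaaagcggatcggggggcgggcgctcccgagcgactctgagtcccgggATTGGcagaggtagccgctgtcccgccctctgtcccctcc
The Mvk promoter held 5 CCAAT boxes on either strand, that of Hmgcs1 held 4, that of Idi1 held 2 and that of Elovl1 held 1. Among the 4, the sterol element TCACNCCAC was in that of Hmgcs1, 137 to 129 bases before the start. CCAAT stood in 23 of the 37 promoter entries of these genes (62.2%) and in 12289 of 32851 entries of the whole table (37.4%). By gene, 13 of 14 sterol branch genes with an entry held it, against 5 of 8 of the fatty acid branch. TCACNCCAC was found for 1 of 28 genes, Hmgcs1, and in 1.24% of all entries. The looser form TCACNCNAC, which includes the first, was found for 2 genes, Hmgcs1 and Nsdhl, and in 2.70% of all entries. A match is a description of the letters in this window and says nothing of binding.

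Values were given in TPM, a length-corrected unit of transcript abundance with the same total in every library, and it keeps no record of depth. The depth behind each value is therefore unknown. Chaf1b was at 17.7, 14.4 and 14.2 TPM in KO replicates 1, 2 and 3 and at 48.6, 49.0 and 50.6 TPM in WT replicates 1, 2 and 3. KO replicate 1 and WT replicate 1 stood apart from the other libraries of their groups: on the log2 scale, Pearson's r over the tested genes was 0.998 for each pair of replicates 2 and 3 and 0.984 to 0.992 for pairs of the same group that include replicate 1 (genes are not independent replicates). The leukaemia and progenitor genes Hoxa9, Meis1, Kit, Ptprc and Cd34 were above 14 TPM in every library, and 1 of the 5 was called: Hoxa9 fell by 0.29 on the log2 scale (limma adjusted p = 0.0286). Cd34 had KO and WT means of 84.8 ± 6.02 and 116 ± 19.3 TPM (SD, n = 3 each), without overlap and not called (adjusted p = 0.0526). The lymphoid genes Ms4a1 and Cd4 were listed at 0 in all. Markers of late granulocytes summed to 418 TPM in WT replicate 1, 69.6 and 90.3 TPM in WT replicates 2 and 3, and 354 to 723 TPM in KO. In these bulk samples, fewer cells of a type and less RNA per cell cannot be told apart.

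Most of the lipid synthesis genes were at nearly the same level in KO and WT. A gene was tested if 3 or more libraries had 1 TPM or more, which held for 35 of the 37, and 2 were called at a limma adjusted p under 0.05: Idi1, which makes the activated isoprene unit, and Fads1, a desaturase of polyunsaturated fatty acids, both higher in KO. None was called lower. That is 5.71% of the tested genes of the group, while 19% of all 13575 tested genes were called (12.9% higher and 6.11% lower). Of the genes called, 67.8% were higher, a share that became 43.9% under quantile normalization. In 6 of the 35 genes (17.1%) the groups were fully separate, 3 with all KO values higher and 3 with all lower, against 42.8% of all tested genes (23.4% higher and 19.5% lower). Every one of the 35 differences between KO and WT was under 0.3 in size on the log2(TPM + 1) scale, as were 74.2% of those of all tested genes and 80.4% of those averaging 10 TPM or more. The median difference over the 35 genes was -0.04, with a range from -0.29 to 0.27, and that over all tested genes was 0.01. The number called by limma moved with single libraries, among all genes as among these. None of the 35 was called without KO replicate 2, KO replicate 3, WT replicate 2 or WT replicate 3, where 0.803%, 0%, 0.184% and 0.11% of all tested genes were (4, 4, 6 and 4 of the 35 had an unadjusted p under 0.05). Without KO replicate 1 there were 4 (27.1% of all tested genes) and without WT replicate 1 there were 5 (35.7%). The differences of the 2 called genes kept their sign when 1 library was left out and ran from 0.21 to 0.31 for Idi1 and from 0.20 to 0.32 for Fads1. Without WT replicate 1 the median difference of the 35 genes was 0.06 in place of -0.04.

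**Figure D1:**
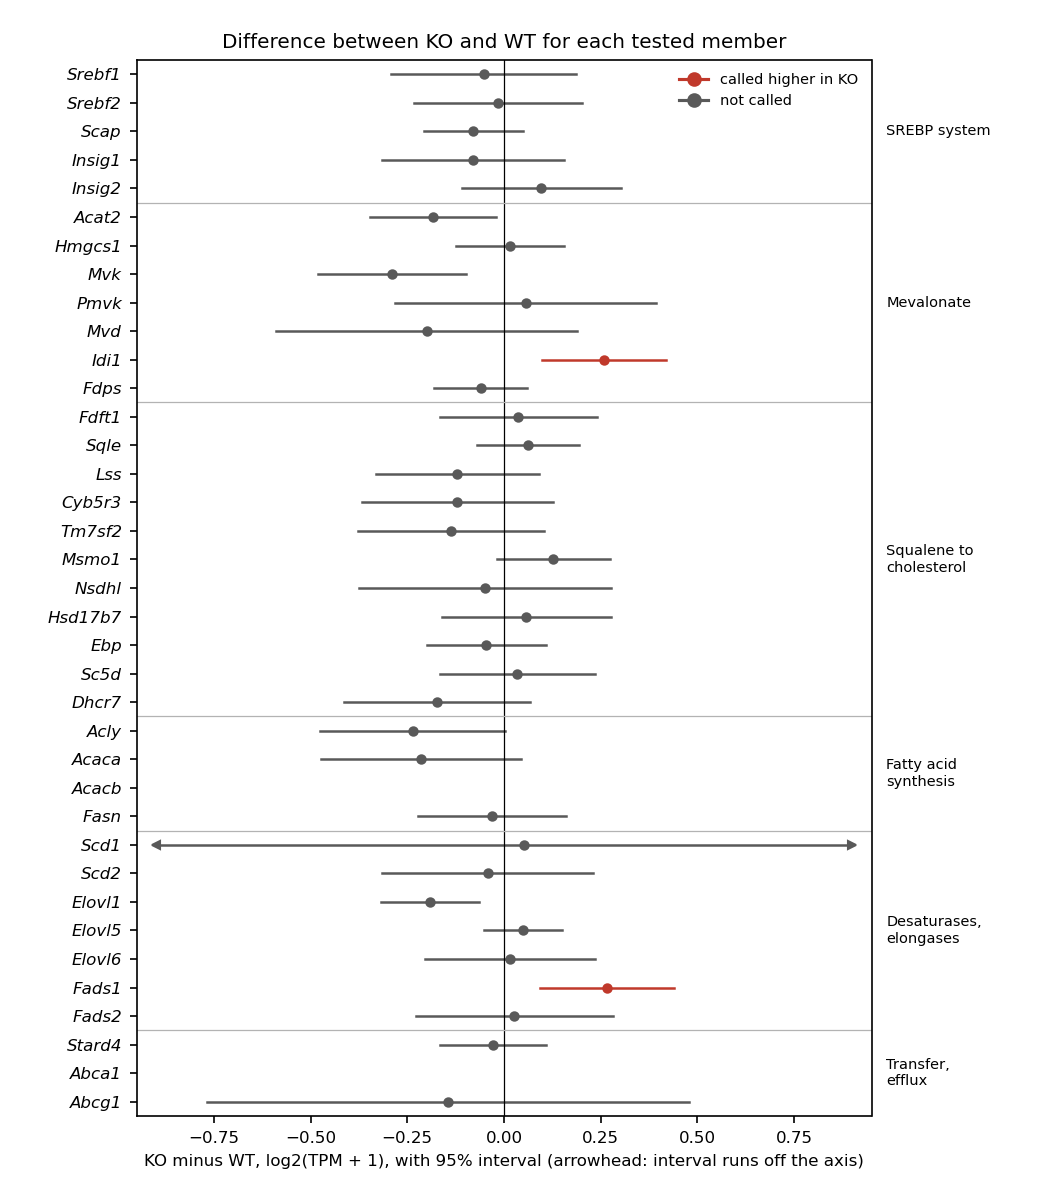
The horizontal axis gives the KO minus WT difference on the log2(TPM + 1) scale with its 95% interval from limma, 1 row for each gene, grouped by role. Idi1 and Fads1, in red, are the 2 called genes; Acacb and Abca1 were not tested, and the interval of Scd1, from -2.06 to 2.16, runs off the axis.

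The genes covered a wide range of levels, and because TPM is per length they can be compared with each other. Scd2, the stearoyl-CoA desaturase of non-liver tissues, had the highest mean over the 6 libraries at 908 TPM, above 98.9% of tested genes. Fdps, which makes farnesyl diphosphate, followed at 535 TPM, Fads2 at 447 TPM and Fasn, the fatty acid synthase, at 401 TPM. Together the 37 genes took 0.543% to 0.637% of all TPM, with the lowest share in WT replicate 2 and the highest in WT replicate 1; the KO libraries lay between, at 0.567% to 0.599%. Paired genes were unequal in level. The TPM ratio of Srebf2 to Srebf1 lay between 5.52 and 5.79 in all 6 libraries and that of Insig1 to Insig2 between 71.7 and 91.9. The groups did not overlap in either ratio. That of Srebf2 to Srebf1 was at least 5.721 in KO and at most 5.718 in WT, a narrow gap. That of Insig1 to Insig2 was at most 77.1 in KO and at least 81.2 in WT. Acaca, the cytosolic acetyl-CoA carboxylase, had a mean of 9.48 TPM and Acacb, the mitochondrial form, of 0.50 TPM.

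**Figure D2:**
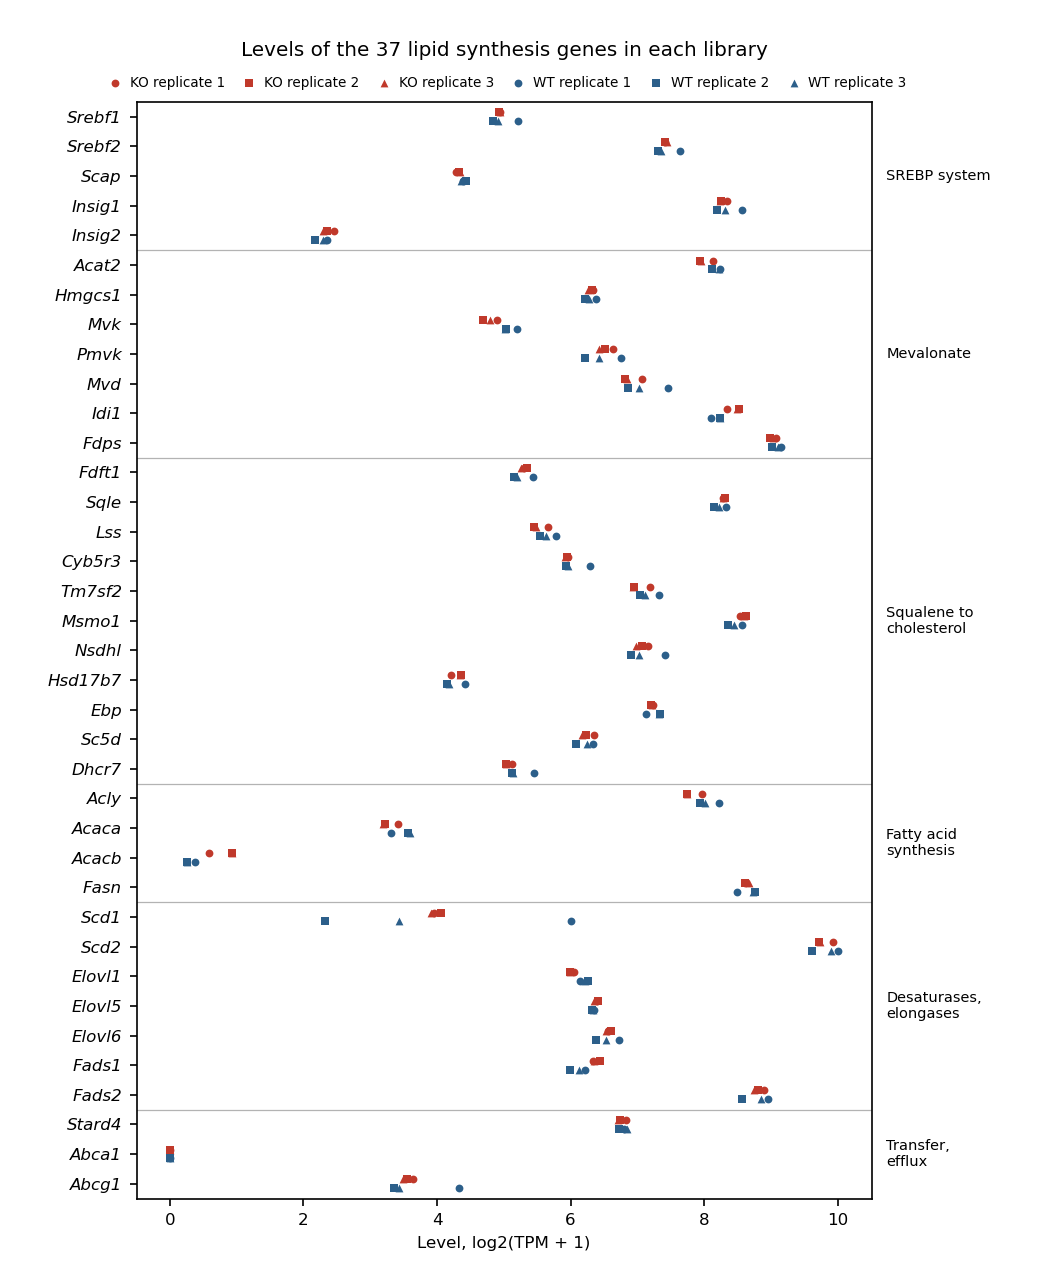
The horizontal axis gives the level of each of the 37 genes as log2(TPM + 1), with red points for KO and blue points for WT libraries and a symbol for each replicate. Points of the 2 groups lie close together for most genes, Scd1 in the WT libraries is spread from 4.0 to 63.6 TPM, and Abca1 is listed at 0 in all 6 libraries.

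None of the 5 genes of the SREBP system was called. Replicates 1, 2 and 3 had 169.9, 169.3 and 172.4 TPM of Srebf2 in KO, and 198.8, 158.4 and 162.8 TPM in WT, an order of replicates kept below. The KO values lay within the WT range, and the difference was -0.02 (95% interval -0.23 to 0.20, limma adjusted p = 0.91). Srebf1 was at 29.7, 29.5 and 29.8 TPM in KO and at 36.0, 27.7 and 29.3 TPM in WT, again with WT replicate 1 highest and the KO values inside the WT range (difference -0.05, interval -0.29 to 0.19, adjusted p = 0.73). Scap, the escort, was at 18.4, 19.1 and 19.3 TPM in KO and at 20.0, 20.7 and 19.5 TPM in WT. All 3 KO values were below all WT values, yet the difference of -0.08 (interval -0.21 to 0.05) was not called (adjusted p = 0.31); 13.2% of its exon bases are shared with a gene on the opposite strand. Insig1, a target of the SREBPs that in turn retains them, was at 322.7, 302.9 and 300.7 TPM in KO and at 376.7, 291.2 and 316.7 TPM in WT (difference -0.08, interval -0.31 to 0.15, adjusted p = 0.58). Its groups overlapped, with WT replicate 1 again highest. Insig2, the form less dependent on SREBPs, was at 4.5, 4.1 and 3.9 TPM in KO and at 4.1, 3.5 and 3.9 TPM in WT, with overlapping groups and a difference of 0.10 (interval -0.11 to 0.30, adjusted p = 0.44).

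Among the 7 mevalonate genes, which turn acetyl-CoA into farnesyl diphosphate, Idi1 rose and the other 6 were not called. Idi1, the isopentenyl diphosphate isomerase (chromosome 13, 8885606 to 8892396, plus strand), had 323.7, 368.4 and 359.0 TPM in KO and 275.0, 300.4 and 302.2 TPM in WT, each in the order of replicates 1 to 3. All KO values were above all WT values, KO replicate 1 was the KO library nearest to WT, and its mean of 350 ± 23.6 TPM in KO stood 19.8% above that of 293 ± 15.2 TPM in WT (SD, n = 3 each). The difference was 0.26 (SE 0.07, limma adjusted p = 0.0447), and 9.22% of its exon bases are shared with a predicted gene on the opposite strand, whose reads can be told apart only if the counting used strand, a setting not given in the sources used here. Its direction was the same under all 15 alternatives, but it was called under 7 of them, with adjusted p from 0.0031 to 0.17. Mvk, the mevalonate kinase (chromosome 5, 114444264 to 114460591, plus strand), was at 28.8, 24.9 and 26.6 TPM in KO and at 35.7, 31.7 and 31.4 TPM in WT. All KO values were below all WT values, and the means of 26.8 ± 1.96 and 32.9 ± 2.40 TPM (SD, n = 3 each) gave a difference of -0.29 (SE 0.08), the lowest of the 35. Its adjusted p of 0.0504 missed the threshold, with a range of 0.010 to 0.18 over the alternatives and a call in 4 of 15.

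The remaining mevalonate genes had overlapping groups. Acat2, a cytosolic acetoacetyl-CoA thiolase that starts the route, had KO and WT means of 258 ± 19.7 and 293 ± 13.0 TPM (SD, n = 3 each; adjusted p = 0.10). Hmgcs1, which makes HMG-CoA and is a textbook SREBP target, was at 78.1 ± 2.19 and 77.3 ± 4.53 TPM, with a difference of 0.02 (interval -0.12 to 0.16) and 12.1% of its exon bases shared with an opposite-strand gene. Hmgcs1 and Mvk had promoters rich in CCAAT boxes, printed above, and differences of 0.02 and -0.29. Pmvk, the phosphomevalonate kinase, was at 91.5 ± 6.88 and 88.9 ± 17.2 TPM, and Mvd, the diphosphomevalonate decarboxylase, at 120 ± 12.2 and 139 ± 31.0 TPM. In both of these WT replicate 1 was the highest of the 6 libraries, at 107.6 TPM for Pmvk and 174.2 TPM for Mvd. Fdps was at 524 ± 16.2 and 546 ± 25.6 TPM (adjusted p = 0.41), but 26.7% of its exon bases are shared with a predicted gene on the same strand, so its value is uncertain.

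None of the 11 genes from squalene to cholesterol was called, and the groups overlapped in all 11. Their median difference was -0.05, with a range from -0.17 for Dhcr7 to 0.13 for Msmo1. Dhcr7, which reduces the last double bond on one of the routes to cholesterol, was at 34.0, 31.8 and 31.7 TPM in KO and at 42.8, 33.7 and 34.4 TPM in WT. WT replicate 1 stood above the rest, KO replicate 1 lay between WT replicates 2 and 3, and the interval of the difference ran from -0.41 to 0.07 (adjusted p = 0.25). Tm7sf2, a sterol reductase, was at 144.6, 123 and 121.3 TPM in KO and at 159.0, 131.3 and 137.5 TPM in WT. Replicate 1 was the highest library in each group, with a difference of -0.14 (interval -0.38 to 0.10, adjusted p = 0.35). Tm7sf2 shares 12.1% of its exon bases with Vps51 on the same strand, so its value is uncertain.

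The enzymes at the entry of this stretch lay close together between groups. Fdft1, the squalene synthase, had means of 38.5 ± 1.10 TPM in KO and 37.6 ± 4.18 TPM in WT (SD, n = 3 each); 18.3% of its exon bases are shared with Ctsb on the opposite strand. Sqle, the squalene monooxygenase and a rate-limiting enzyme of the sterol branch, was at 313 ± 4.33 and 300 ± 19.0 TPM (difference 0.06, interval -0.07 to 0.20). Lss, which closes the sterol ring, was at 45.4 ± 3.51 and 49.4 ± 4.47 TPM. Later enzymes did the same. Msmo1, the methylsterol monooxygenase, was at 383 ± 11.3 and 351 ± 24.4 TPM (adjusted p = 0.17), Nsdhl, which acts with it in removing methyl groups, at 133 ± 8.21 and 140 ± 26.9 TPM, and Hsd17b7, the third enzyme of that complex, at 18.8 ± 1.10 and 18 ± 1.97 TPM. Ebp, a sterol isomerase, was at 148 ± 1.39 and 153 ± 11.7 TPM, and Sc5d, a sterol desaturase, at 75.4 ± 4.64 and 73.7 ± 6.75 TPM. Cyb5r3, a reductase that supplies electrons to several of these steps, was at 60.3 ± 0.86 and 66.1 ± 9.78 TPM. The SD was larger in WT than in KO for each of these 9 genes.

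The 3 tested genes of fatty acid chain synthesis had negative differences with all 6 libraries, and none was called; that of Fasn turned to 0.0285 after quantile normalization, to 0.0214 without WT replicate 2 and to 0.0063 without WT replicate 3. Acly, which makes cytosolic acetyl-CoA from citrate for both branches (chromosome 11, 100476352 to 100528000, minus strand), was at 250, 213.8 and 213.7 TPM in KO and at 299.2, 243.4 and 256.9 TPM in WT. KO replicates 2 and 3 were below every WT library while KO replicate 1 lay among them, and the difference was -0.24 (interval -0.48 to 0.00, adjusted p = 0.135). Acaca, whose product malonyl-CoA feeds chain growth, was at 9.7, 8.3 and 8.1 TPM in KO and at 8.9, 10.8 and 11.1 TPM in WT. Here WT replicate 1 was the lowest WT library, below KO replicate 1, and the interval of the difference of -0.21 ran from -0.47 to 0.04 (adjusted p = 0.193). Fasn was at 389.5, 391.5 and 406.5 TPM in KO and at 357.8, 433.9 and 424.9 TPM in WT, with all KO values inside the WT range and a difference of -0.03 (interval -0.22 to 0.16, adjusted p = 0.81). Acacb was not tested: it was listed at 0.5, 0.9 and 0.9 TPM in KO and at 0.3, 0.2 and 0.2 TPM in WT. Its KO values were all above its WT values, at levels of a few steps of the 0.1 TPM rounding.

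Of the 7 desaturases and elongases, Fads1 rose and 6 were not called. Fads1 (chromosome 19, 10182877 to 10196874, plus strand) was at 79.5, 86.0 and 80.3 TPM in KO and at 73.3, 62.4 and 68.6 TPM in WT. All KO values were above all WT values, and the mean of 81.9 ± 3.54 TPM in KO stood 20.3% above that of 68.1 ± 5.47 TPM in WT (SD, n = 3 each), a difference of 0.27 (SE 0.07, limma adjusted p = 0.0492). It was positive under all 15 alternatives and called in 6, with adjusted p from 0.017 to 0.19. Fads2, the desaturase that acts before it and whose gene lies nearby on the same chromosome, had means of 450 ± 23.2 and 444 ± 61.2 TPM in KO and WT (adjusted p = 0.88). The TPM ratio of Fads2 to Fads1 was 5.98, 5.18 and 5.35 in KO and 6.76, 6.04 and 6.72 in WT, so the 2 groups did not overlap in it. The same held for the ratios of Srebf2 to Srebf1, Insig1 to Insig2 and Acaca to Acacb. The groups overlapped in those of Scd2 to Scd1 and Elovl5 to Elovl6. How often ratios of other gene pairs separate the groups was not examined. Elovl1, an elongase of very long chains (chromosome 4, 118426874 to 118432953, plus strand), was at 65.6, 62.7 and 62.7 TPM in KO and at 69.6, 76.0 and 73.0 TPM in WT. All KO values were below all WT values, the difference was -0.19 (SE 0.05), and its adjusted p of 0.05005 lay at the threshold without passing it, with a call in 4 of 15 alternatives (range 0.0066 to 0.187). Elovl5, which extends polyunsaturated chains, was at 82.8 ± 1.72 and 79.9 ± 0.70 TPM, with no overlap but a difference of 0.05 (interval -0.05 to 0.15, adjusted p = 0.42). Elovl6, which extends saturated chains, was at 93.6 ± 2.42 and 93.0 ± 11.4 TPM.

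Scd1, chosen for detail after its values were seen, varied most within a group. It introduces the double bond that makes oleate, and it was at 14.5, 15.6 and 14.1 TPM in KO. In WT it was at 63.6, 4.0 and 9.8 TPM. The KO libraries lay close together inside a WT range that spans WT replicate 1 at 9.22 times the mean of WT replicates 2 and 3. With all libraries its difference was 0.05 (interval -2.06 to 2.16, limma adjusted p = 0.97). Without WT replicate 1, its own outlying library, it was 1.10 (adjusted p = 0.0494), in a fit that called 35.7% of all tested genes. Without both replicates 1 it was 1.11 (adjusted p = 0.083). Scd1 was called in 1 of 15 alternatives. Scd2, which resembles Scd1 in sequence, had means of 892 ± 72.6 and 923 ± 127 TPM in KO and WT; how reads shared by these copies were counted is not known from the sources, so both values are uncertain.

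The 3 genes of sterol transfer and efflux gave no call. Stard4, a SREBP target that moves cholesterol between membranes, was at 113.1, 106.5 and 103.4 TPM in KO and at 110.4, 104.5 and 114.5 TPM in WT, with overlapping groups and a difference of -0.03 (interval -0.17 to 0.11, adjusted p = 0.75). Abcg1, an efflux transporter induced by the sterol-sensing LXR receptors, was at 11.5, 10.7 and 10.2 TPM in KO and at 19.1, 9.2 and 9.8 TPM in WT. WT replicate 1 was at 2.01 times the mean of WT replicates 2 and 3, and all KO values lay above those of WT replicates 2 and 3 (difference -0.14, interval -0.77 to 0.48, adjusted p = 0.72). Abca1, the other LXR-induced transporter, was listed at 0 in all 6 libraries, like 12985 genes in all.

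The sterol and fatty acid branches were then set side by side. Of 18 sterol branch genes 1 was called (5.56%), and of 10 tested fatty acid branch genes 1 was called (10%), against the 19% of all tested genes. Their median differences were -0.05 and -0.01. Averaged over its genes, the sterol branch stood at 6.75, 6.69 and 6.67 on the log2(TPM + 1) scale in KO and at 6.88, 6.64 and 6.71 in WT. The fatty acid branch stood at 6.25, 6.23 and 6.20 in KO and at 6.44, 6.0 and 6.18 in WT. In each branch the 3 KO libraries lay within the range of the WT libraries. The sterol branch mean exceeded the fatty acid branch mean by 0.50, 0.45 and 0.47 in KO and by 0.44, 0.64 and 0.53 in WT, so the balance of KO also lay inside the WT range (0.48 ± 0.02 against 0.54 ± 0.10, SD, n = 3 each). With genes of at least 5 TPM alone, the difference in balance between KO and WT was -0.01 in place of -0.06. In summed TPM, the sterol branch was at 2825 ± 51.6 in KO and 2838 ± 181 in WT, and the fatty acid branch at 2310 ± 110 and 2390 ± 220.

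**Figure D3:**
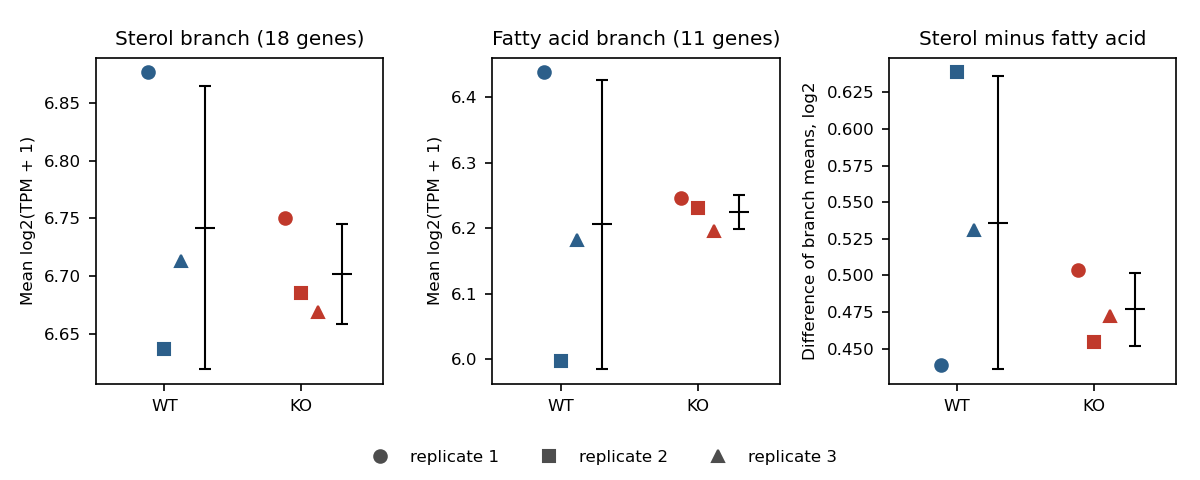
The vertical axes give the mean log2(TPM + 1) over the 18 sterol branch genes, over the 11 fatty acid branch genes, and the first minus the second, for each library; black bars are the mean ± SD of 3 libraries. In the first 2 panels WT replicate 1 is the highest and WT replicate 2 the lowest of the 6 libraries, and the KO libraries lie between them.

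The WT libraries differed from each other more than the groups did, and in the same order for most of these genes. WT replicate 1 was the highest WT library for 28 of the 35 tested genes (80%), and WT replicate 2 the lowest for 28. For 27 genes (77.1%) the order was WT replicate 1, then 3, then 2, which held for 20.6% of all tested genes. By role, 15 of 18 sterol branch genes, 7 of 10 fatty acid branch genes and 4 of 5 genes of the SREBP system had that order, with Scap as the exception in the last. Idi1, Ebp, Acaca, Fasn and Elovl1 went against it, with WT replicate 1 the lowest WT library. The SD of log2(TPM + 1) was smaller in KO than in WT for 31 of the 35 genes (88.6%), against 59.5% of all tested genes. Its median over the genes was 0.07 in KO and 0.15 in WT, against 0.08 and 0.11 over all tested genes. The sum of late granulocyte markers, at 418, 69.6 and 90.3 TPM in WT replicates 1, 2 and 3, had the same order. In KO that sum was lowest in replicate 1, at 353.6, 722.8 and 634.5 TPM in replicates 1, 2 and 3. KO replicate 1 was the highest KO library for 22 of the 35 genes (62.9%). That held for 44.1% of all tested genes and 53% of those averaging 10 TPM or more. The part of these markers in the values was not tested. WT replicate 1 also differs from the rest in its column name, where the depositors added a remark about a replacement.

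**Figure D4:**
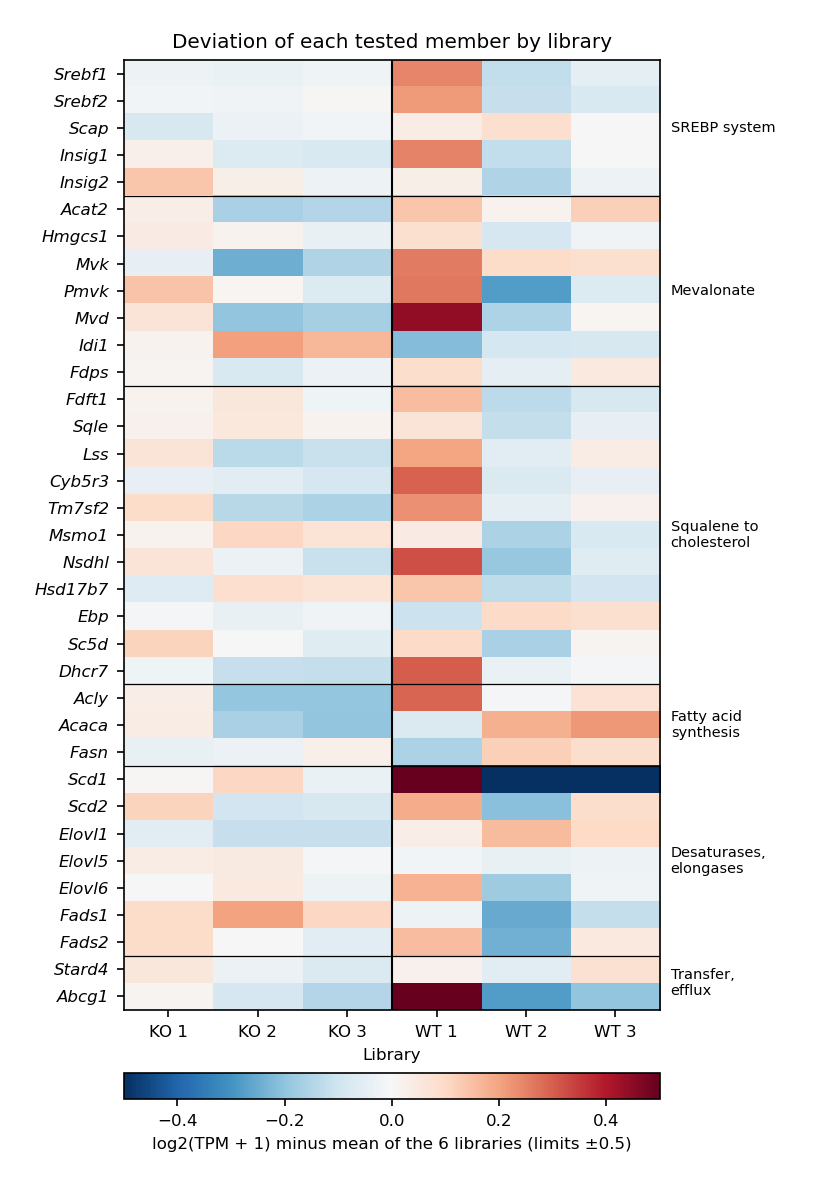
Colours give log2(TPM + 1) of each of the 35 tested genes in each library minus the mean over the 6 libraries, red above and blue below, with colour limits at ±0.5. The column of WT replicate 1 is mostly red and that of WT replicate 2 mostly blue, while Idi1, Acaca, Fasn and Elovl1 show other patterns.

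Without KO replicate 1 and WT replicate 1, leaving 2 libraries a group, 12 of the 35 genes were called (34.3%), 4 higher and 8 lower, while 55.8% of all tested genes were (28.4% higher and 27.3% lower). Higher in this fit were Idi1 (difference 0.27), Fads1 (0.34), Msmo1 (0.20) and Hsd17b7 (0.19). Lower were Acat2 (-0.22), Mvk (-0.28), Tm7sf2 (-0.14), Ebp (-0.12), Acly (-0.23), Acaca (-0.38), Fasn (-0.11) and Elovl1 (-0.24). All 3 tested genes of chain synthesis were among the lower ones, while the 11 genes from squalene to cholesterol gave 2 in each direction. None of the 5 genes of the SREBP system was called in it: Srebf2 came nearest with a difference of 0.09 (limma adjusted p = 0.0566). Without WT replicate 1 alone, 5 members were called (14.3%, against 35.7% of all tested genes, 21.6% higher and 14.2% lower): Fads1, Msmo1 and Scd1 higher, and Acaca and Elovl1 lower.

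**Figure D5:**
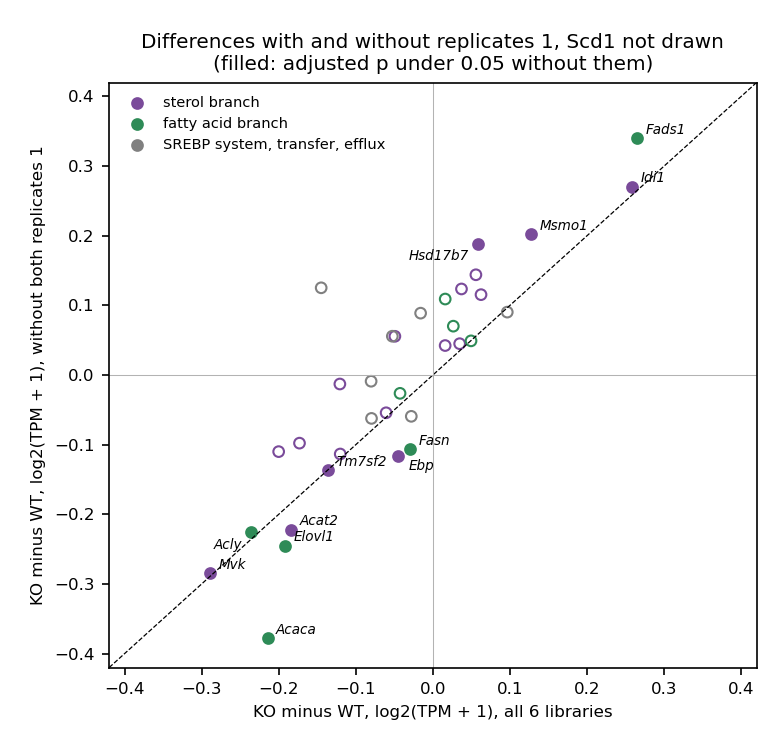
The axes give the KO minus WT difference on the log2(TPM + 1) scale with all 6 libraries (horizontal) and without both replicates 1 (vertical), 1 point for each tested gene except Scd1 (0.05 and 1.11), with filled points where the adjusted p was under 0.05 without the 2 libraries. The 12 filled and named genes lie on the same side of zero on both axes.

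Other genes of lipid metabolism were compared as lists chosen by pathway, with the 19% called among all tested genes as background. Of 7 genes of SREBP proteolysis and sterol-regulated protein degradation, and of 12 genes of the non-sterol isoprenoid branch, none was called by limma. At an unadjusted p under 0.05 there were 2 and 2, against 38% of all tested genes. These were the SREBP proteases Mbtps1 (difference -0.20, adjusted p = 0.0539) and Mbtps2 (-0.35, 0.0658), and Fnta (-0.29, 0.0526) and Ggps1 (0.18, 0.129). In all 4 the groups were fully separate. That held for 4 of the 7 genes (57.1%), all lower, and for 7 of the 12 (58.3%), 4 higher and 3 lower, against 42.8% of all tested genes. Among 6 tested LXR genes Mylip, an LXR-induced ubiquitin ligase for lipoprotein receptors, rose from 41.6 ± 3.85 to 56.7 ± 4.47 TPM (SD, n = 3 each; difference 0.44, adjusted p = 0.0263). Of 10 genes of sterol trafficking and esterification 2 rose and none fell. Soat1, which esterifies cholesterol for storage, went from 26.6 ± 1.6 to 31.6 ± 1.35 TPM (difference 0.24, adjusted p = 0.0490), and Lrp1, an endocytic receptor, from 0.73 ± 0.23 to 4.60 ± 1.68 TPM (difference 1.65, adjusted p = 0.0150). Lrp1 was at 2.7, 5.9 and 5.2 TPM in KO and at 1.0, 0.6 and 0.6 TPM in WT. It passed the filter only through its KO values, so that call has little weight. None of 7 tested genes of acetyl-CoA and NADPH supply was called, with 3 at an unadjusted p under 0.05.

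Calls in both directions were found in glycerolipid synthesis and in fatty acid oxidation, and their difference from the 19% of all tested genes was not tested. Of 13 tested glycerolipid genes 2 rose and 1 fell (23.1% called): Dgat2, which makes triglycerides, from 73.7 ± 11 to 130 ± 13.7 TPM (difference 0.81, adjusted p = 0.0158), Agpat3, an acyltransferase, from 1.13 ± 0.15 to 1.80 ± 0.17 TPM (0.39, adjusted p = 0.0417), and Gpam, the first acyltransferase of the pathway, from 6.33 ± 0.64 down to 4.73 ± 0.42 TPM (-0.35, adjusted p = 0.0497). Of 13 genes of mitochondrial fatty acid oxidation 3 fell and 1 rose (30.8% called). The acyl-CoA dehydrogenase genes Acadvl and Acads fell by 0.30 and 0.36 on the log2 scale (adjusted p = 0.0273 and 0.0337), Echs1, an enoyl-CoA hydratase, fell by 0.17 (0.0490), and Acaa2, the last thiolase of the cycle, rose by 0.22 (0.0386). Markers of other cells moved in the same comparison, in which 12.9% of all tested genes were called higher. Called higher were 3 of 7 tested late granulocyte genes, 2 of 5 monocyte and macrophage genes and 2 of 4 erythroid genes. In each list 1 tested gene had a negative difference, not called: Mmp9 (-0.48), Ccr2 (-0.36) and Hbb-bt (-0.54). Hoxa9 was called lower. Monocyte and macrophage markers summed to 150 to 227 TPM in KO and 92.9 to 166 TPM in WT. The 1 tested lymphoid gene, Cd79a, was called higher, at 1.0, 1.0 and 1.3 TPM in KO and 0.5, 0.5 and 0.7 TPM in WT. It passed the filter only through its KO values, so that call has little weight. Ltf, Mmp8, Retnlg, Csf1r, Epor, Cd3e and Cd3g were at too low a level for testing. The part of these markers in the calls above was not tested.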

How the data were processed

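Poly-A RNA of 3 KO and 3 WT libraries, grouped by sample title, was analysed; per the labels' protocols, stranded libraries gave paired reads of 100 bp. The submitters' processing notes name mm10 and these tools: featureCounts 1.6.2, Trim Galore 0.4.2, STAR 2.6.1e and cutadapt 1.9.1. No source used here gives the annotation, the strand setting or how counts became TPM. The deposited unit is TPM for each gene symbol, which the authors rounded to 1 decimal; because each library has the same total, more of an abundant transcript means less of the rest.

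The filter (1 TPM or more in 3 or more of 6 libraries) left 13575 genes and removed 22294. The test was limma 3.58.1 (in R 4.3.3) on log2(TPM + 1), fitted to all 6 libraries with no covariate beside genotype and with eBayes using a trend in the variance. P-values are two-sided and Benjamini-Hochberg adjusted across the 13575 genes; a call is an adjusted p under 0.05. Differences are KO minus WT on that log2 scale, which understates the change of low genes, and intervals are the fit's 95% intervals. An exact test of 3 against 3 libraries cannot go below p = 0.1 and was not used. Each library's value was given for the SREBP system, the called members and the 2 members of each role group with the largest difference; Scd1, Acacb, Fasn and Abca1 were added after their values were seen. Members and lists were chosen with earlier results of these data known. Gene positions are from RefSeq (GRCm38.p6) and exon overlaps from GENCODE M21 on that assembly. The alternatives were pseudocounts of 0.5 and 5, a mean of at least 5 TPM or no filter, median-of-ratios and quantile scaling, no trend, a replicate block, and leaving out each library in turn or both replicates 1. The fit was tested on simulated data, with noise drawn separately for each gene. Each size of change was given to 50 genes averaging at least 5 TPM. It recovered 4 of 50 changes of 1.2-fold (8%), 35 of 50 of 1.5-fold (70%) and 48 of 50 of 2-fold (96%). The simulation held far fewer changed genes than the 2575 called in the data, and no noise shared between genes. These shares are therefore not the power of the comparison itself. Genes not called may still differ by a small amount. No libraries were duplicates: within a group, at most 8.48% of tested genes had equal values in a pair.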

Additional observations from a re-analysis of the deposited data

How the results depend on the processing

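Over all genes the count called was 2575; it was 525 without the filter, 1578 at a mean of at least 5 TPM, 333 with the replicate block (limma), 7569 without both replicates 1, and between 0 and 4850 with 1 library left out (0 without KO replicate 3, where 3381 had an unadjusted p under 0.05). The number of members called was 2; it was 0 without the filter, without the trend or with the replicate block (8, 5 and 6 at an unadjusted p under 0.05), 1 at a mean of at least 5 TPM, 4 with median-of-ratios scaling, 12 without both replicates 1 and between 0 and 5 with 1 library left out. For the sterol branch, with 1 called, it was 0 without the filter, without the trend or with the block, 2 with either scaling, 7 without both replicates 1 and 0 to 3 with 1 library left out. For the fatty acid branch, with 1 called, it was 0 under those 3 settings and at a mean of at least 5 TPM, 2 with median-of-ratios scaling, 5 without both replicates 1 and 0 to 4 with 1 library left out. Same-numbered KO and WT libraries did not deviate together (r of deviations -0.20, -0.15 and -0.16 for replicates 1, 2 and 3). For pairs of different number, r ran from -0.21 to 0.23. With so few libraries this cannot show whether same-numbered libraries shared a culture or preparation. No member was called with the block. The difference in branch balance stayed between -0.12 and 0.01.

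Signs of small differences that were not called turned as follows. Quantile normalization gave 0.025 for Srebf2, -0.165 for Insig2, -0.0028 for Hsd17b7, 0.0164 for Ebp, 0.0285 for Fasn, -0.0318 for Scd1 and 0.0204 for Stard4, and a pseudocount of 5 gave -0.084 for Scd1. Without both replicates 1, Srebf1 was at 0.0557, Srebf2 at 0.0888, Nsdhl at 0.0556 and Abcg1 at 0.125. With 1 library left out, differences ran from -0.127 to 0.0565 for Srebf1, -0.0768 to 0.0862 for Srebf2, -0.162 to 0.0231 for Insig1, -0.0231 to 0.0596 for Hmgcs1, -0.0692 to 0.201 for Pmvk, -0.0192 to 0.124 for Fdft1, -0.156 to 0.10 for Nsdhl, -0.0378 to 0.0921 for Sc5d, -0.117 to 0.0214 for Fasn, -0.75 to 1.10 for Scd1, -0.158 to 0.0399 for Scd2, -0.0685 to 0.106 for Elovl6, -0.0878 to 0.11 for Fads2, -0.0637 to 0.0024 for Stard4 and -0.32 to 0.17 for Abcg1. The causes were not tested. With TPM alone, the number of reads behind low values such as Acacb is unknown.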

Other observations

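Other short motifs were counted in the same promoter windows. The Sp box GGGCGG stood in 27 of 37 promoter entries of the lipid synthesis genes (73%) and in 35.7% of all 32851 entries; by gene it was found for 13 of 14 of the sterol branch and 3 of 8 of the fatty acid branch. The E-box CACGTG, which reads the same on both strands, stood in 8 of 37 entries (21.6%) and in 7.15% of all. The whole table also holds promoters of genes that are silent in these cells and of noncoding genes, and entries of 1 gene can overlap.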
